A study of Gallus gallus and Dromaius novaehollandiae with 14 samples.

Results

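The 100 genes described here were those whose transcripts were highest in the claw epidermis of both the chicken and the emu. They were 100 of the 8751 genes listed. RNA was sequenced from epidermis of chicken (Gallus gallus) and emu (Dromaius novaehollandiae) embryos, peeled from the dermis with a protease and taken from skin tracts bearing 4 kinds of appendage placode. Feather tracts were taken at Hamburger and Hamilton stage 33 to 34, claw at stage 36, scutate scale at stage 37 and reticulate scale at stage 39, so stage and appendage cannot be told apart. Chicken eggs were incubated at 37.8 °C and emu eggs at 35.5 °C, so temperature and species cannot be told apart either. Chicken had 2 samples in each of its 4 groups. Emu had 2 for feather, 2 for scutate scale, and 1 each for reticulate scale and claw. The labels name no strain, and nothing in them says that replicates came from separate embryos, so p-values measure only the spread between these samples, which may be technical.

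A placode is a local thickening of the epidermis from which a skin appendage grows. The bird claw is a hard sheath of cornified epidermis over the last bone of the toe. Scutate scales are the overlapping plates of the shank and upper foot, reticulate scales are the small rounded pads of the sole, and feathers grow from follicles that arise from their own placodes. Claws, scutate scales and feathers harden by filling their keratinocytes with keratins and with corneous beta-proteins, a protein family of birds and reptiles.

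The deposited table identifies genes only by Ensembl chicken IDs, and none of these could be paired with a gene name. The members are therefore numbered by rank, member 1 being the most claw-biased, and no role is given to any of them. For the same reason the tissue labels could not be checked against marker genes of the epidermis or of other cell types. In bulk tissue, more cells of a type and more RNA per cell cannot be told apart. All levels are TPM, an abundance per transcript length relative to a total, and depth behind them is unknown. The emu columns are labelled as scaled, and each sums to 550000 over the listed genes. Chicken columns sum to 500783 to 575133, so the total was not set in the same way in the birds.

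Members were chosen from the values themselves. For each species a score was taken as the claw level minus the highest of the feather, scutate and reticulate means, all on log2(TPM + 1). In chicken the lower of the 2 claw replicates stood for the claw. A TPM of at least 5 was required in each of the 3 claw libraries, which 4833 genes (55.2%) met. Of these, 518 had a chicken score above 0 (10.7%) and 1349 had an emu score above 0 (27.9%). Both scores were above 0 for 298 genes, which is 57.5% of the chicken list and 22.1% of the emu list. With libraries rescaled by median ratios, these counts were 1439 in chicken, 1826 in emu and 837 in both, and with libraries brought to 1 TPM total they were 722, 1349 and 395. All 100 members kept both scores above 0 under either rescaling. The genes were ranked by the smaller score, and the first 100 became members. Because the claw values chose them, the claw differences below are a description and carry no test.

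**Figure D1:**
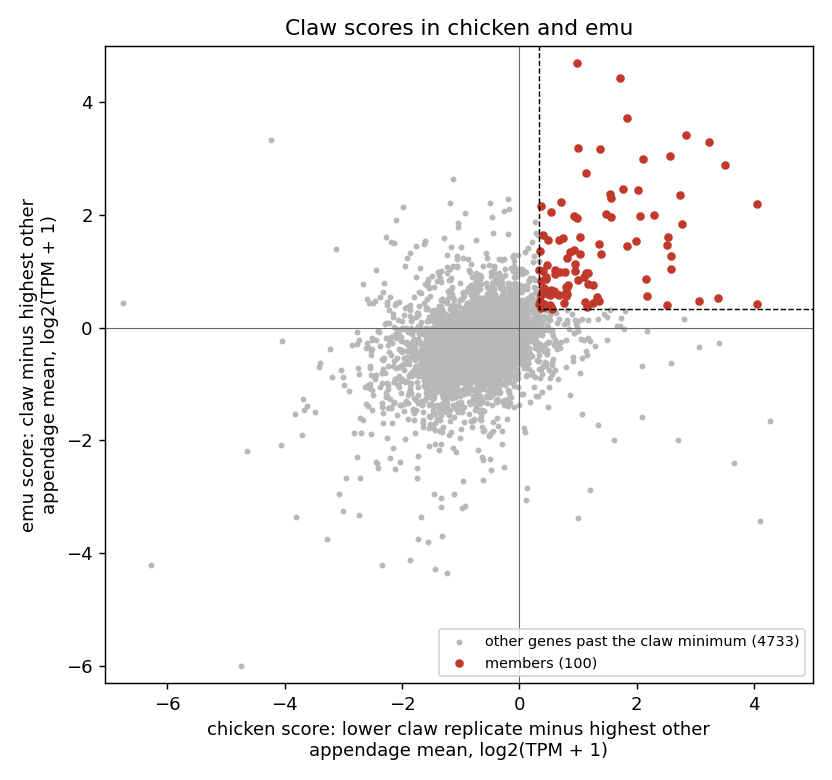
Chicken score (x axis) against emu score (y axis), both in log2(TPM + 1), for the 4833 genes past the claw minimum; red points are the 100 members and the dashed lines mark the smaller score of member 100, which was 0.33. Members fill the upper right corner, and most other genes have a score below 0 in at least 1 species.

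Member 1 (ENSGALG00000010343) was close to absent outside the claw. Its TPM was 20.5 and 19.4 in the chicken claw libraries, against 0.0703 and 0.281 in feather. Scutate scale had 0.0781 and 0.0746. Its reticulate scale libraries were at 1.4 and 0.944. In emu it was 9.26 in claw and 0.0882 in feather replicate 1, and it was listed at 0 in the other 4 libraries. The claw libraries stood clear of all others in both birds.

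Member 2 (ENSGALG00000007359) was abundant in claw and present everywhere. It reached a TPM of 1031 and 1005 in chicken claw, against 38.6 and 33.8 in feather and 78.3 and 98.3 in scutate scale, while reticulate scale had 73.8 and 39.1. The emu claw had 478, feather 19.5 and 22.7, scutate scale 59.7 and 67.7, and reticulate scale 22.8. The ratio of the claw level to the mean of the 3 other groups was 16.9 in chicken and 13.3 in emu. Scutate scale was the next highest group in both birds.

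Members 3, 4 and 5 were low outside the claw in chicken. Member 3 had a TPM of 28.3 and 24.2 in chicken claw and 40.9 in emu claw, against at most 3.16 in the other chicken libraries and at most 4.98 in the other emu libraries. Member 4 had 24.7 and 80.0 in chicken claw and 58.8 in emu claw, with its next highest value in reticulate scale in both birds, at 5.73 and 6.28. The claw replicates of chicken were thus far apart for member 4 and close for member 3. Member 5 had 20.2 and 34.4 in chicken claw against 0.103 to 2.59 elsewhere. In emu, member 5 was at 72.5 in claw but also at 7.2 to 16.6 in the other tracts, so its claw bias was sharper in chicken.

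Member 6 was listed at 0 in 4 of the 6 other chicken libraries and was 0.179 and 0.192 in the remaining ones, against 17.2 and 33.9 in claw. The emu claw had 14.5, and the other emu libraries had 1.39 to 2.39. Member 7 was at 16.3 and 27.4 in chicken claw and 35.4 in emu claw, against at most 3.34 and 3.6 elsewhere. Member 8 was at 34.4 and 29.8 in chicken claw and 35.1 in emu claw, almost the same level in the species, against at most 8.88 and 5.88 elsewhere. Each of these 3 had its claw libraries above every other library of its species.

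Member 9 was the lowest of the first 9 members in emu claw, at a TPM of 8.63, against 0.515 to 1.47 elsewhere in emu. In chicken it was 25.1 and 20.7 in claw against 1.3 to 3.75 elsewhere. Members 10 to 12 were abundant. Member 10 had 850 and 661 in chicken claw and 770 in emu claw, and its lowest group was feather in both birds, at 54.0 and 45.5 in chicken and 45.7 and 45.8 in emu. Member 11 had 758 and 1566 in chicken claw but 31.2 in emu claw. Member 12 had 732 and 867 in chicken claw and 203 in emu claw, with reticulate scale next highest in chicken (225 and 185) and lowest in emu (4.95).

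**Figure D2:**
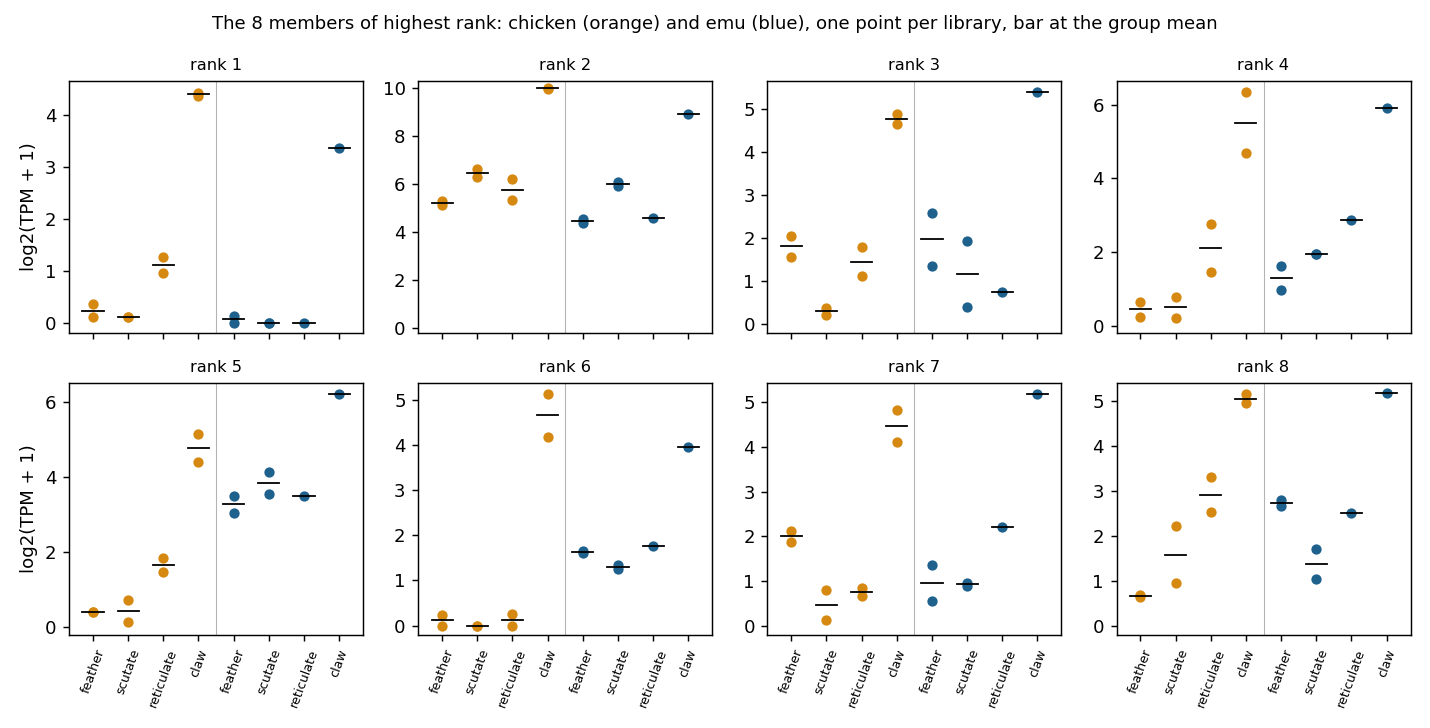
Log2(TPM + 1) of the 8 members of highest rank by group, with 1 point per library, chicken in orange, emu in blue, and a bar at the group mean. The claw points are the highest of their species in each panel, and the emu reticulate scale and claw groups have 1 library each.

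Over all 100 members, the chicken score had a median of 0.97 (range 0.33 to 4.06) and the emu score a median of 1.00 (range 0.33 to 4.69). A score of at least 1, which is a 2-fold excess of TPM + 1 over the next highest group, was met by 46 members in chicken, by 51 in emu and by 30 in both. The smaller score came from chicken for 56 members and from emu for 44. In chicken, the claw libraries exceeded every other library for 99 members, and in emu for all 100. The same held for 8.24% of the 4833 genes in chicken and 24.1% in emu, and for 4.57% in both. These counts follow from the selection. The exception was member 92, whose chicken reticulate scale replicate 1 reached a TPM of 105, above its claw values of 72.4 and 62.1, while replicate 2 of reticulate scale was at 19.9.

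The rank limit did not fall at a gap. Member 98 had scores of 0.34 in chicken and 0.41 in emu, with a TPM of at most 82.2 in the chicken tracts other than claw and of 141 in emu claw. Member 99 had 348 and 338 in chicken claw against 207 to 243, and 164 in emu claw against 109 to 133. Member 100 had smaller and larger scores of 0.33 and 1.03. The first 3 genes outside had smaller scores of 0.33, 0.33 and 0.32. The last of these had a chicken score of 1.54 and was kept out by its emu score.

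**Figure D3:**
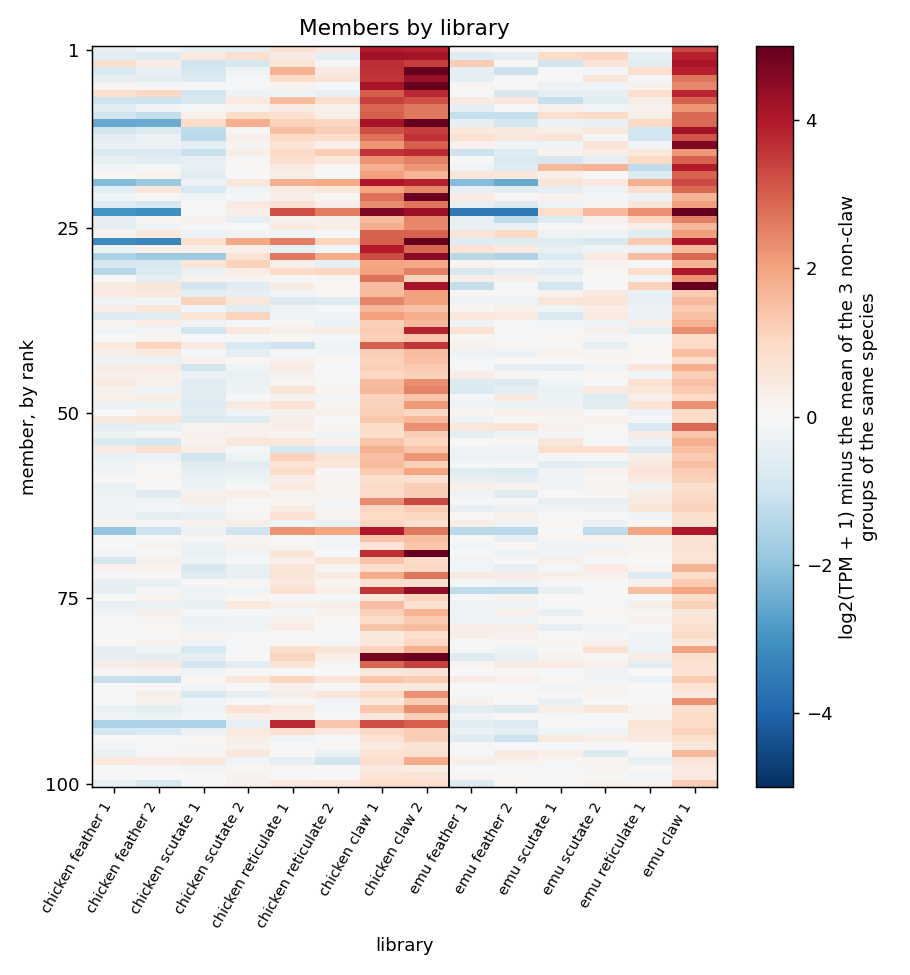
Each row is a member in rank order and each column a library; colour is log2(TPM + 1) minus the mean of the 3 non-claw groups of the same species, cut at 5 in both directions. The chicken claw columns and the emu claw column are above 0 throughout but close to white for many members of low rank. Pale red in the reticulate scale columns marks the next highest group of many members.

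Summed over the members, the module took 3.35% and 4.21% of the listed TPM in the chicken claw libraries and 4.1% in the emu claw library. In the other chicken libraries it took 0.825% to 1.31%, and in the other emu libraries 1.24% to 1.56%. The median member had a TPM of 47.9 and 63.0 in chicken claw and 61.6 in emu claw, against 10.1 to 23.8 elsewhere in chicken and 14.9 to 20.99 elsewhere in emu. The chicken claw libraries were lower than the rest for genes at large. The median of the 4833 genes was 28.3 and 30.5 there, against 35.7 to 41.3 in the other 12 libraries. Rescaling by median ratios, with factors of 0.741 and 0.820 for the chicken claw libraries, moved the members' median score from 0.97 to 1.35 in chicken and from 1.00 to 1.13 in emu.

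A few members carried much of that sum. Member 76 was the most abundant in emu claw, at a TPM of 7010, and had 2471 and 1451 in chicken claw. It was also at 2526 to 3754 in the other emu libraries and 647 to 1220 in the other chicken libraries. Member 52 had 2755 in emu claw against 228 to 600 elsewhere in emu, and 1602 and 4113 in chicken claw against 606 to 1060. For member 52 reticulate scale had the lowest mean of the emu groups and the highest non-claw mean in chicken, where it overlapped scutate scale. The member with the highest TPM was member 76 in emu claw and chicken claw replicate 1, and member 52 in chicken claw replicate 2. Without the highest member of each library, the module still took 2.83% of the TPM in emu claw and 2.86% and 3.42% in chicken claw.

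Members 25, 55, 58 and 81 were also among the 8 members of highest TPM in emu claw, as were member 10 above and member 23 below. Member 25 had 1008 and 1532 in chicken claw and 795 in emu claw, and its group means ascended in the order feather, scutate, reticulate, claw in both birds, from 206 and 248 in chicken feather and 197 and 204 in emu feather. Member 55 had 733 and 551 in chicken claw and 736 in emu claw, and reticulate scale was its lowest group in both birds, at 118 and 139 in chicken and 164 in emu. The order of the non-claw groups thus differed between abundant members. Member 58 had 650 in emu claw and 122 and 193 in chicken claw. Member 81 had 577 in emu claw, and 726 and 1031 in chicken claw, with 333 to 444 and 440 to 560 elsewhere.

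Members differed in how far they were limited to the claw. With a TPM of 5 as the dividing level, 11 members stayed under it in every non-claw library of both species. These were members 1, 3, 6, 7, 9, 14, 21, 26, 28, 37 and 71, and their emu claw TPM ran from 5.44 to 40.9. A further 11 members stayed under it outside the claw in chicken only, and 3 in emu only. The remaining 75 were at 5 or more in at least 1 non-claw library of each species. The median ratio of claw to the mean of the other groups was 17.05 in chicken and 7.67 in emu for the 11 members under that level in both. Among the 75 it was 2.81 in chicken and 2.42 in emu. The lowest ratios among the 11 were 2.17 in chicken, for member 71, and 3.20 in emu, for member 37. Member 71 had a TPM of 5.86 and 6.68 in chicken claw against up to 4.76 elsewhere in chicken, so the class does not imply a wide gap. Low values outside the claw define that class, and its dividing level is also the claw minimum, so these counts and ratios are a description. The share of the 4833 genes that met the same conditions was not counted, so nothing is read from the class sizes.

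The members limited to the claw in chicken but not in emu included some wide contrasts between the birds. Member 83 had a TPM of 59.9 and 368 in chicken claw against 0.559 to 3.83 elsewhere, whereas emu had 36.6 in claw and 13.0 to 27.2 elsewhere. Member 69 had 23.2 and 59.7 in chicken claw against 0.481 to 1.82, and 34.3 in emu claw against 17.7 to 25.3. Member 74 had 15.3 and 28.1 in chicken claw against at most 1.3, and in emu it had a TPM of 14.8 and 14.7 in feather and 28.8 and 35.2 in scutate scale, with reticulate scale at 109 and claw at 151. All 3 were thus near absent outside the chicken claw and widespread in emu. Their claw ratios were 150, 46.1 and 51.4 in chicken and 1.7, 1.58 and 2.91 in emu. Member 33, of the same class, had the higher claw ratio in emu, 54.3 against 14.6 in chicken. It was at 346 in emu claw against 1.7 to 12.4 elsewhere, and at 5.95 and 40.7 in chicken claw against 0.253 to 2.68.

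The chicken claw replicates were further apart than other replicates for these genes. Over the members, the log2 difference between replicates had an SD of 0.75 in chicken claw and of 0.27 to 0.52 in the 5 remaining groups with replicates. Over the 4833 genes it was 0.47 in claw and 0.20 to 0.34 in the others. In every group with replicates, not only in claw, the SD was larger over the members than over the 4833 genes. Replicate 2 was the higher for 72 of the members and for 57.4% of the 4833 genes, and the median difference was 0.30 for the members and 0.06 for the 4833. The replicates were over 2-fold apart (TPM + 1) for 14 members, 11 of them higher in replicate 2, against 4.55% of the 4833 genes. The gap was widest for member 27, at 84.7 and 690. Member 32 had the widest gap in the other direction, at 253 in replicate 1 and 85.3 in replicate 2. The rule scored the lower claw replicate, so these comparisons of the members with the 4833 genes are a description. Since the emu claw has 1 library, the distance between claw replicates could not be examined there.

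Outside the claw, the members were highest in reticulate scale more often than in the other tracts. Reticulate scale was the highest non-claw group for 57 members in chicken, feather for 23 and scutate scale for 20. Over the 4833 genes the same shares were 28.9%, 46.9% and 24.2%. These values too entered the score. In emu it was reticulate scale for 49 members, feather for 31 and scutate scale for 20, against 39.5%, 43.1% and 17.4% of the 4833. The highest non-claw group was the same in both species for 49 members, 34 of them with reticulate scale. Over the 4833 genes, 46.7% had the same group and 16.4% had reticulate scale in both.

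The contrasts below compare no claw values, but they are not independent of the selection. In the main limma fit, the spread of each gene was pooled over all groups with replicates. The distance between its chicken claw replicates therefore enters every SE and p-value of that fit. The highest non-claw mean of each species was subtracted in the score, so genes high in any 1 of these tracts were less likely to become members. Counts, medians and directions over the members are therefore a description, and the limma p-values of single members are conditional on that choice. In chicken, 29 members were lower in feather than in reticulate scale and 5 were higher, at a limma adjusted p under 0.05 over the 7563 genes tested. The background was 9.84% of all tested genes lower in feather and 18.5% higher, or 28.3% either way. The share called either way was near the background. Nothing is read from the direction, since the rule penalised genes high in any of these tracts. The log2 difference, feather minus reticulate, had a median of -0.37 over the members and 0.09 over all tested genes. It was negative for 71 members, while 57.9% of all tested genes were positive. The members called lower in feather numbered 27 to 35 under the 10 other settings that kept all libraries. The 34 calls fell to 19 without feather replicate 1, to 20 without feather replicate 2 and to 19 without reticulate scale replicate 1.

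Member 23 (ENSGALG00000010923) had the largest of these differences. Chicken feather had a TPM of 2.16 and 2.06, scutate scale 22.9 and 30.9, reticulate scale 235 and 151, and claw 631 and 490. The groups did not overlap, and each was higher than the one before. Feather was lower than reticulate scale by -5.93 on the log2 scale (SE 0.28, limma adjusted p 5.41e-06), and scutate scale by -2.78 (limma adjusted p 9.06e-04). In emu the same order held, feather being at 0.898 and 0.901, scutate scale at 39.4 and 68.1, reticulate scale at 108 and claw at 986.

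Member 27 (ENSGALG00000019430) was also close to absent in feather. Chicken feather had a TPM of 0.208 and 0.118, scutate scale 17.9 and 41.0, reticulate scale 63.4 and 22.6, and claw 84.7 and 690. Scutate and reticulate scale overlapped, and feather lay below both. The difference of feather from reticulate scale was -5.07 (SE 0.84, limma adjusted p 0.0027). The emu values were lower throughout, feather being at 0.0894 and 0.0897, scutate scale at 0.109 and listed at 0, reticulate scale at 3.09 and claw at 26.4.

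Higher in feather than in reticulate scale were 5 members. Member 41 had the largest such difference, 1.44 (SE 0.43, limma adjusted p 0.0353), from a TPM of 6.86 and 11.2 in feather and 1.72 and 3.79 in reticulate scale. Member 55 followed at 1.29 (SE 0.18, limma adjusted p 0.0011). The call for member 41 was lost in 10 of 22 alternative settings, among them those without either feather library, without reticulate scale replicate 1 and with the replicate block, and that for member 55 in 0.

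Scutate scale was compared with reticulate scale in the same way. In chicken, 14 members were lower in scutate scale and 3 higher by limma, against a background of 3.6% and 4.03%, or 7.63% either way. The median log2 difference was -0.38 over the members and 0.03 over all tested genes, and it was negative for 77 members. Member 92 had the largest called difference, -3.56 (SE 0.63, limma adjusted p 0.0113), from a TPM of 1.66 and 4.93 in scutate scale; the reticulate scale replicates, at 105 and 19.9, lay far apart. Among called members, 35 and 30 had the 2 largest differences in the other direction, at 1.53 (limma adjusted p 0.0026) and 0.95 (limma adjusted p 0.045), the latter call being lost in 14 of 22 alternative settings. These 17 calls rest on the spread shared across all groups. A limma fit of only the 4 libraries compared called 0 genes, members included, with 39 members at an unadjusted p under 0.05. The count was 6 without scutate scale replicate 1, 7 and 11 without reticulate scale replicates 1 and 2, 10 without either feather library of either species, and 27 without either claw library.

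**Figure D4:**
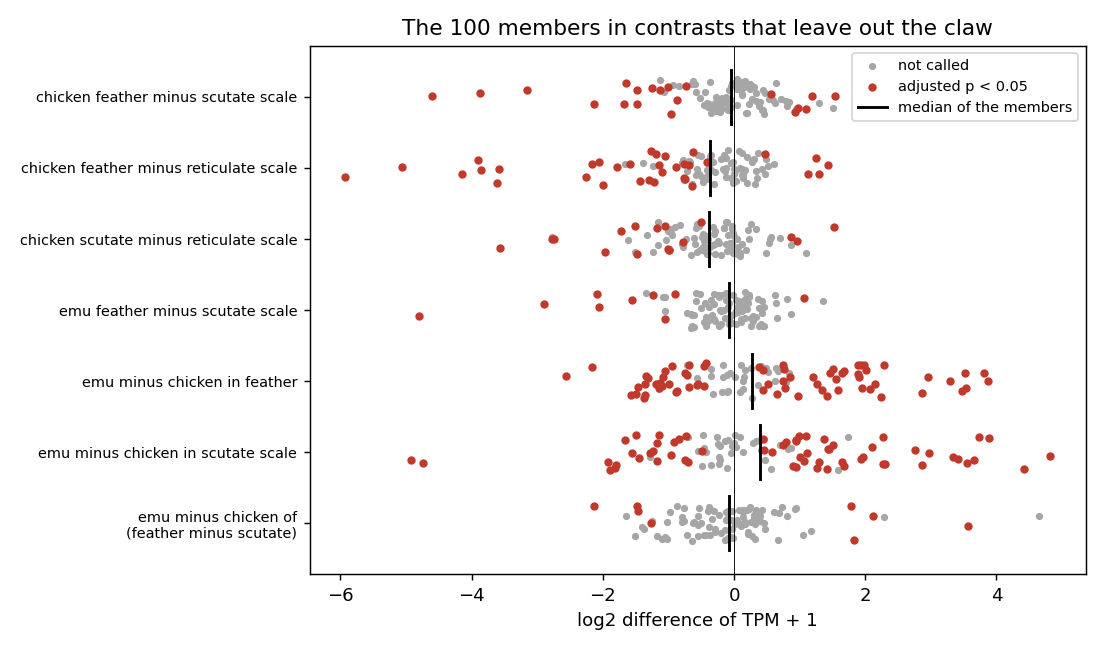
Log2 difference of TPM + 1 of each of the 100 members (points, jittered vertically) in the 7 contrasts that compare no claw values. Red points passed a limma adjusted p of 0.05 and the bar is the median of the members. The medians of the contrasts with chicken reticulate scale lie at -0.37 and -0.38, and those of the other contrasts between tracts lie near 0.

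Feather and scutate scale could be compared in both birds. In chicken 14 members were lower in feather and 6 higher, against a background of 3.2% and 6.62%, or 9.82% either way. In emu 8 were lower in feather and 1 higher, against 2.26% and 2.58%, or 4.84% either way. The median log2 differences were small, at -0.05 in chicken and -0.08 in emu over the members, against 0.05 and 0.02 over all tested genes. Chicken and emu shared 5 of these calls, which is 5 of 20 in chicken and 5 of 9 in emu, and all 5 had the same direction. Over all tested genes, 95 were called in both birds, which is 12.8% of the chicken calls and 26% of the emu calls, and 74 of them had the same direction. The chicken count fell to 9 without feather replicate 1, 6 without feather replicate 2, 11 without scutate scale replicate 2 and 12 in a fit of only the groups compared. The emu count fell to 4 without feather replicate 2, 5 without scutate scale replicate 1 and 4 without scutate scale replicate 2, and was 14 without either chicken claw library.

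Member 27 gave the largest chicken difference, -4.60 (SE 0.84, limma adjusted p 0.0093), a call lost without either feather library or without scutate scale replicate 2. Member 11 followed at -3.87 (SE 0.35, limma adjusted p 3.40e-04). Its TPM was 6.46 and 6.65 in feather and 80.9 and 148 in scutate scale. In emu feather and scutate scale, both members were at a TPM of 2.69 or less. Of the members called in the other direction, member 7 was higher in chicken feather by 1.53 (SE 0.34, limma adjusted p 0.0224; lost in 4 of 22 settings) and member 51 by 1.20 (SE 0.19, limma adjusted p 0.0045). In emu, member 23 was lower in feather by -4.80 (SE 0.28, limma adjusted p 8.09e-05). Member 19 was lower in emu feather by -2.90 (SE 0.26, limma adjusted p 6.47e-04), at 0.733 and 0.368 against 11.03 and 10.03 in scutate scale. Member 26 was the single member called higher in emu feather, by 1.07 (SE 0.19, limma adjusted p 0.0145), at 1.36 and 2.04 against 0.276 and 0.273, and it was not called in a fit of only the groups compared.

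For 8 members, feather and scutate scale differed by unequal amounts in the 2 birds, by the interaction term in limma, against a background of 4.28% of tested genes. In 4 of them the feather minus scutate difference was higher in emu (background 1.4%) and in 4 lower (background 2.88%). Member 11 had the largest called, 3.56 (SE 0.49, limma adjusted p 0.0059). Its difference was -3.87 in chicken and -0.31 in emu, where its TPM was 2.43 and 1.5 in feather and 2.69 and 2.57 in scutate scale. Member 17 had -2.13 (SE 0.32, limma adjusted p 0.0076), with 27.7 and 29.8 in chicken feather and 23.4 and 33.0 in chicken scutate scale, but 4.97 and 3.27 in emu feather and 19.7 and 21.2 in emu scutate scale. So member 11 was split between these tracts in chicken and member 17 in emu. Member 27 had the largest estimate of all the members, 4.65, but with an SE of 1.19 it was not called (limma adjusted p 0.0656). Its chicken claw replicates, at a TPM of 84.7 and 690, enter that SE. The count was 2 and 4 without chicken feather replicate 2 or 1, 3 and 4 without emu feather replicate 1 or 2, 4 without emu scutate scale replicate 2, 16 without either chicken claw library and 17 in a fit of only the groups compared.

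Species differences were next taken for the members in each tract. The way emu genes were matched to chicken IDs is not given. A species difference in transcript level and one from matching or scaling therefore cannot be told apart. In claw, where emu has 1 library and there is no test, 50 members were higher in emu and 50 in chicken, with a median log2 difference, emu minus chicken, of -0.01. The median over the 4833 genes was 0.31, and because claw values of both species chose the members, nothing is read from the gap between these medians. With libraries rescaled by median ratios, 40 members were higher in emu, with a median of -0.37 against -0.03 for the 4833. By at least 2-fold (TPM + 1), 26 members were higher and 23 lower in emu claw, where 22.3% and 7.39% of the 4833 genes were. Member 33 was the furthest above chicken, by 4.35, and member 11 the furthest below, by -5.08. Members 74 and 70 were higher in emu claw by 2.80 and 2.78, and members 27 and 84 were lower, at -3.15 and -2.35.

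In feather, 40 members were higher in emu and 29 lower at a limma adjusted p under 0.05, against a background of 32.8% and 29.6% of tested genes, or 62.4% either way. In scutate scale, 40 were higher and 22 lower, against 34.1% and 29.2%, or 63.3% either way. The shares called were near the background in both tracts. The median log2 difference was 0.27 over the members and 0.04 over all tested genes in feather, and 0.40 and 0.05 in scutate scale. Of the members, 51 were called in both tracts, and 49 of these in the same direction, 31 higher and 18 lower in emu. Of all tested genes, 51.7% were called in both tracts, and 98.7% of those had the same direction, so the members were near the background.

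Members 41 and 74 led in both tracts. Member 41 was higher in emu feather by 3.87 (SE 0.43, limma adjusted p 4.84e-05) and in emu scutate scale by 4.42 (limma adjusted p 1.99e-05). Outside the claw, emu libraries held it at a TPM of 90.3 to 149 and chicken libraries at 1.72 to 11.2. Member 74 was higher by 3.80 (SE 0.28, limma adjusted p 3.83e-06) and 4.82 (limma adjusted p 7.35e-07). In the opposite direction, member 17 was lower in emu feather by -2.56 (SE 0.23, limma adjusted p 1.09e-05) and member 94 by -2.16 (SE 0.20, limma adjusted p 1.69e-05). Member 11 was lower in emu scutate scale by -4.93 (SE 0.35, limma adjusted p 2.39e-06) and member 27 by -4.74 (SE 0.84, limma adjusted p 8.97e-04). For member 11 the emu values stayed below the chicken values in every tract.

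The species difference of a member in claw followed its difference elsewhere, about as it did for genes at large. Across the 100 members, the emu minus chicken difference in claw and its mean over the other 3 tracts had a Pearson r of 0.72, against 0.74 across the other 4733 genes past the claw minimum. These values describe genes that share libraries within a tract and are not independent replicates. Claw and non-claw values of both birds also entered the rule, so r over the members is a description. Between single tracts, r over the members was 0.81 for feather and scutate scale, 0.71 for scutate scale and claw, 0.71 for reticulate scale and claw, and 0.59 for feather and claw. Over the 4833 genes the same values were 0.88, 0.71, 0.68 and 0.69. In all 4 tracts alike, 33 members were higher in emu and 30 higher in chicken, and 37 had mixed signs, against 36.9%, 25.6% and 37.5% of the 4833.

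**Figure D5:**
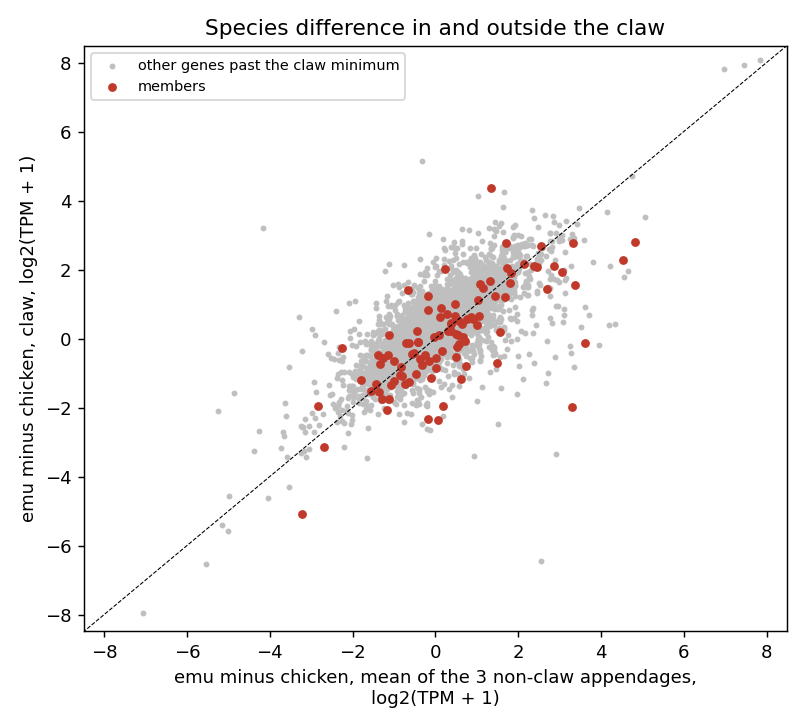
Emu minus chicken difference in claw (y axis) against its mean over feather, scutate and reticulate scale (x axis), both in log2(TPM + 1), for the members in red and the other genes past the claw minimum in grey; the dashed line marks equal differences. Members lie on both sides of 0, and the member furthest under the line is member 83, at -2.00 in claw.

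For 10 members the claw difference departed from the mean of the other tracts by more than 2 log2 units. Member 83 departed most, by -5.30, since it was 3.30 and 3.66 higher in emu feather and scutate scale but lower in emu claw, at -2.00. Member 69 departed by -3.72 and member 33 by 3.01. The others among the 10 were members 6, 14, 21, 41, 74, 84 and 92, of which only member 14 was relatively higher in emu claw. In all, 8 departed downward and 2 upward. Of the 4833 genes, 2.65% departed by as much, 1.16% downward and 1.49% upward. The departure is built from the claw excess of each bird, which the rule scored, so these counts are a description of the members.

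Over the 8 group means, the members resembled their common profile to different degrees. The Pearson r of a member's 8 group means with the mean profile of the members had a median of 0.77, ran from 0.21 to 0.99 and was over 0.9 for 17 members. The mean profile in chicken, on log2(TPM + 1), was lowest for feather at 3.68, followed by scutate scale at 3.85, reticulate scale at 4.31 and claw at 6.05. The emu groups had 4.10, 4.31, 4.47 and 6.13 in the same order. Among genes outside the rank limit, the 5 most like it had an r of 0.94 to 0.97. Of these, 3 stood at ranks 102, 121 and 161, with smaller claw excesses, and the other 2 were below the claw minimum of 5 TPM.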

How the data were processed

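Polyadenylated RNA of embryonic epidermis was sequenced in 14 samples. The deposited table lists 8751 chicken gene IDs. The authors appear to have deposited the square root of TPM (transcripts scaled to a fixed total). The deposited data are named as scaled TPM and the emu columns as scaled. No header names a square root, which was read from the values. TPM carries no read depth. Squared, each emu column sums to 550000 over the listed genes, and chicken columns to 500783 to 575133. Per the submitters' processing notes, CASAVA, TopHat2 2.0.6 and HTSeq 0.5.3p9 were used. The genome build and the way emu genes were matched are not given in the sources used here. The reference table held 0 of the IDs, so no gene is named, and pathway and marker lists could not be applied. TPM had been planned for, so the values were squared first.

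Members and lists were chosen with earlier results of these data known. Tests used limma 3.58.1 (R 4.3.3; eBayes with trend) on log2(TPM + 1) for the 7563 genes that reached a TPM of 1 in 2 or more samples. A single model of 8 group means was fitted, with Benjamini-Hochberg adjustment over all genes tested and a threshold of 0.05. The same fit was also run on simulated data, with an outcome not given here. Python 3.11.15 with pandas 2.3.3 selected the members. The rule for members described singly took the 12 of highest rank, the 8 of highest emu claw TPM, the 3 on each side of the rank limit, the 3 with the largest species difference in claw in each direction, and in each contrast the 2 called with the largest difference in each direction. Members 32, 69, 83 and the others singled out beyond it were chosen after their values were seen. Alternatives changed the pseudocount, filters, scaling, variance model, block and libraries.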

Additional observations from a re-analysis of the deposited data

Results flagged for a closer look

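Chicken and emu differed in the feather to scutate scale contrast for 8 members, by the interaction term in limma at an adjusted p under 0.05. The background was 4.28% of the 7563 genes tested, with 1.4% higher in emu and 2.88% lower. The values are the feather minus scutate scale log2 difference in emu minus that in chicken. It was 3.56 for member 11, -2.13 for member 17, 1.79 for member 30, -1.26 for member 34, 2.12 for member 37, -1.49 for member 51, -1.47 for member 55 and 1.84 for member 86. Of these, members 11, 30, 34, 37, 51 and 86 were called within chicken and not within emu, and members 17 and 55 within emu and not within chicken. The estimates had opposite signs in the birds for all of these but member 11, which was negative in both. The estimates not called ran in size from 0.05, for member 17 in chicken, to 0.64, for member 37 in emu. Opposite signs are therefore not read as a reversal between the birds. The call for member 37 was lost in 14 of 22 alternative settings and that for member 51 in 4. No group held 4 or more samples, so single libraries were not tested as outliers.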

How the results depend on the processing

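The rule kept 77 to 98 of the 100 members when the pseudocount, the scaling, the claw minimum or the use of the mean claw replicate was changed, with 83 after median-ratio rescaling. Leaving out 1 library at a time kept 62 to 100. The lowest of these came without chicken claw replicate 1, when replicate 2 alone scores the chicken claw. Left-out libraries gave 6 to 27 calls for chicken feather against scutate scale and 19 to 43 for feather against reticulate scale. The range was 6 to 27 for scutate against reticulate scale, 4 to 14 for emu feather against scutate scale, 53 to 75 and 53 to 67 for the species difference in feather and scutate scale, and 2 to 16 for the interaction. A fit of only the groups compared gave 12 calls for chicken feather against scutate scale, 0 for scutate against reticulate scale and 17 for the interaction. Testing all genes above 0 gave 11 for scutate against reticulate scale. No other setting moved a count of calls by over 1.5 times, apart from the crossed block below. Of the 27 named differences, 16 kept their call in every setting run, 11 lost it in at least 1 and 0 reversed. The tracts of a species were taken at different stages, so same-numbered libraries of different tracts did not come from the same embryo. Whether replicate numbers pair the samples in another way is unknown. Deviations of same-numbered chicken libraries correlated at -0.228 to 0.185 and those of emu at -0.043, which cannot decide it with 2 libraries per group. The replicate block gave 19, 31, 16, 9, 68, 62 and 7 calls in the 7 contrasts, in the order plotted. With the chicken scutate scale numbers crossed, chosen after seeing the data, scutate against reticulate scale gave 11. The pathway lists planned for chicken claw were not run, because no ID could be named. Depth is unknown, so the counting error of low TPM values could not be given.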
